A study of Mus musculus with 3 samples.

Results

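The genes of the cytosolic ribosome are those that encode the proteins of its large and small subunits. They were taken from the arrays by name, as probes whose gene name begins with Rpl or Rps followed by a number, an a or a p. S6 kinases, like-genes, which are close relatives with names ending in l or l1, and names marked as pseudogenes were left out. This gave 77 genes, 46 of the large subunit and 31 of the small subunit, at 129 of the 41174 probes on the array, which carry 27597 gene labels in all. The rule used names and no measured value. However, the members, and the gene lists set beside them below, were chosen with earlier results of these data known.

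The study measured total RNA of 3 mouse cell samples, each labelled with 1 dye and hybridised to 1 Agilent array. The samples were embryonic stem (ES) cells, mouse embryonic fibroblasts (MEF) described as p53-null, and MEF given as p53 wt in the design text. Each sample is labelled Nanog-GFP, a reporter with green fluorescent protein driven by a pluripotency gene. The design sets p53-null MEF against MEF and ES cells against MEF, in a series about the part p53 plays when fibroblasts are turned into induced pluripotent stem cells. The labels give neither the p53 allele, the passage number, the strain nor the number of embryos pooled, so each group is known only by its name.

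A ribosome needs its proteins in fixed proportions, and the genes for them are among the most strongly transcribed in growing cells. Their mRNAs usually start with a C followed by a run of C and T bases, through which the mTOR pathway sets how strongly they are translated. The family is also tied to p53. When ribosome assembly is disturbed, Rpl5 and Rpl11 bind Mdm2 together with 5S ribosomal RNA, and Mdm2 then no longer marks p53 for destruction.

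With 1 array per group there is no replicate, so every difference describes these 3 arrays and carries no test. Signals were divided by the 75th percentile of their array, which was 834 units for ES cells, 1040 for p53-null MEF and 829 for MEF, and are called scaled signals. Differences are on the log2 scale. The scanner software's own error for a difference between bright signals was 0.20. It rests on a preset multiplicative error of 10% and was nearly the same for all members. Statements that a gene lay within 1 error thus use a fixed cutoff and not a measured spread. A gene was called different at 2-fold or more. Between 26198 and 27954 of 43379 spots were well above background, and none was saturated. A single slide and scan held the arrays of ES cells and MEF, and another held that of p53-null MEF, so slide and p53 status cannot be told apart. Trp53, the gene for p53, had a scaled signal of 5.88 in ES cells, 0.0540 in p53-null MEF and 1.57 in MEF at its brighter probe. Its second probe differed by -1.46 for p53-null MEF minus MEF, and the part of the gene that is missing is not stated. The summed scaled signal of 7 ES cell markers was 510 in ES cells, 0.222 in p53-null MEF and 0.771 in MEF, and Pou5f1, Nanog, Zfp42 and Esrrb were not well above background in either MEF sample. That of 8 fibroblast markers, all well above background on the 3 arrays, was 7.98 in ES cells, 425 in p53-null MEF and 560 in MEF. That of 6 proliferation markers was 66.9 in ES cells, 53.8 in p53-null MEF and 6.19 in MEF, so these markers were lowest in MEF. Macrophage markers summed to 0.710 in ES cells, 0.551 in p53-null MEF and 3.01 in MEF, glial markers to 0.215, 0.585 and 4.76, and muscle markers to 0.211, 2.70 and 8.15 in the same order. A single gene made up most of each of these 3 sums in MEF, with 2.39 for macrophages, 4.42 for glia and 7.69 for muscle. In p53-null MEF a single gene gave 2.40 of the muscle sum. The part of these marker differences in the results was not tested. In bulk RNA, fewer cells of a type and less RNA per cell cannot be told apart.

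Of the 129 probes, 124 were well above background on all 3 arrays, and 38 genes had several probes. The brightest probe over the 3 arrays stood for a gene, and all 77 of these brightest probes were well above background on every array. Of 128 placed member probes, 40 had a span on mouse build mm8 longer than the probe itself, which is 60 bases long.

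The deposited probe sequences show what the probes of a gene read. Some probes that the array design names after a ribosomal protein gene lie in stretches that the brightest probe skips, and they are shown because they gave other differences. The brightest Rpl11 probe covers both ends of a 323-base span, chr4:135322046-135322368 of mm8 on the minus strand. A probe designed on the cDNA clone AK014593, at chr4:135322118-135322177, lies inside that span.
Rpl11, brightest probe: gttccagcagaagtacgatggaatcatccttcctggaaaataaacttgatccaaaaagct
Rpl11, clone AK014593: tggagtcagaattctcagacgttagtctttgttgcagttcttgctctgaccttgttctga
Rpl35a showed the same arrangement on the plus strand of chromosome 16. Its brightest probe spans chr16:32977241-32978436, a second one chr16:32977256-32978456, and the probe of clone AK160963, at chr16:32977335-32977394, lies inside both. The first 2 share 45 bases with 4 mismatches, in capitals, and gave differences of 0.55 and 0.72 for p53-null MEF minus MEF and of 0.53 and 0.66 for ES cells minus MEF.
Rpl35a, brightest probe: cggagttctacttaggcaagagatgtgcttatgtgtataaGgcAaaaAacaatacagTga
Rpl35a, second probe: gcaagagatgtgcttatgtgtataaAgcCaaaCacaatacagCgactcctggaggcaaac
Rpl35a, clone AK160963: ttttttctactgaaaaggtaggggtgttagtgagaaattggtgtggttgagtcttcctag
For Rpl13 the probe of clone BC083148 lies at chr8:125990880-125990939, between the other 2 probes of the gene, and for Rps18 the probe of clone AK018004 lies at chr17:33564847-33564906, upstream of both others on the minus strand.
Rpl13, clone BC083148: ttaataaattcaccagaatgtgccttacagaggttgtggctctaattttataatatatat
Rps18, clone AK018004: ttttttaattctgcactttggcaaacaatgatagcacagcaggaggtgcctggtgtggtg
Rps18, brightest probe: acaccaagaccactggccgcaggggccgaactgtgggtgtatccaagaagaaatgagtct
Whether these stretches are introns or exons of other transcripts was not determined, because no genome of build mm8 was used.

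At the brightest probes and with the arrays scaled on their 75th percentile, no ribosomal protein gene differed by 2-fold between p53-null MEF and MEF. Their median difference was 0.13, with a standard deviation over the 77 genes of 0.30 and a range of -0.94 to 0.70. None was called higher and none lower, whereas 18.6% of all 17392 genes measured in this comparison were called higher and 16.6% lower. The count rests on the scaling: 2 members were called higher with no scaling, and all 77 on spike-ins, where the members' median was 2.10 and that of all genes 2.09. The standard deviation of all genes was 1.23. At 1.5-fold, 5 members were higher and 2 lower, against 29.6% and 27.3% of all genes. Of the members, 58 lay above 0, yet 42 of the 77 lay within 1 error of 0 and 48 within 1 error of the members' own median. With the arrays scaled on their 75th percentile, the members' median lay 0.10 above the median of all genes. Scaling by 1 number per array moves both medians nearly alike, so the other scalings are no check of this gap. With quantile normalization the gap was 0.11, and with cyclic loess it was 0.064.

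**Figure D1:**
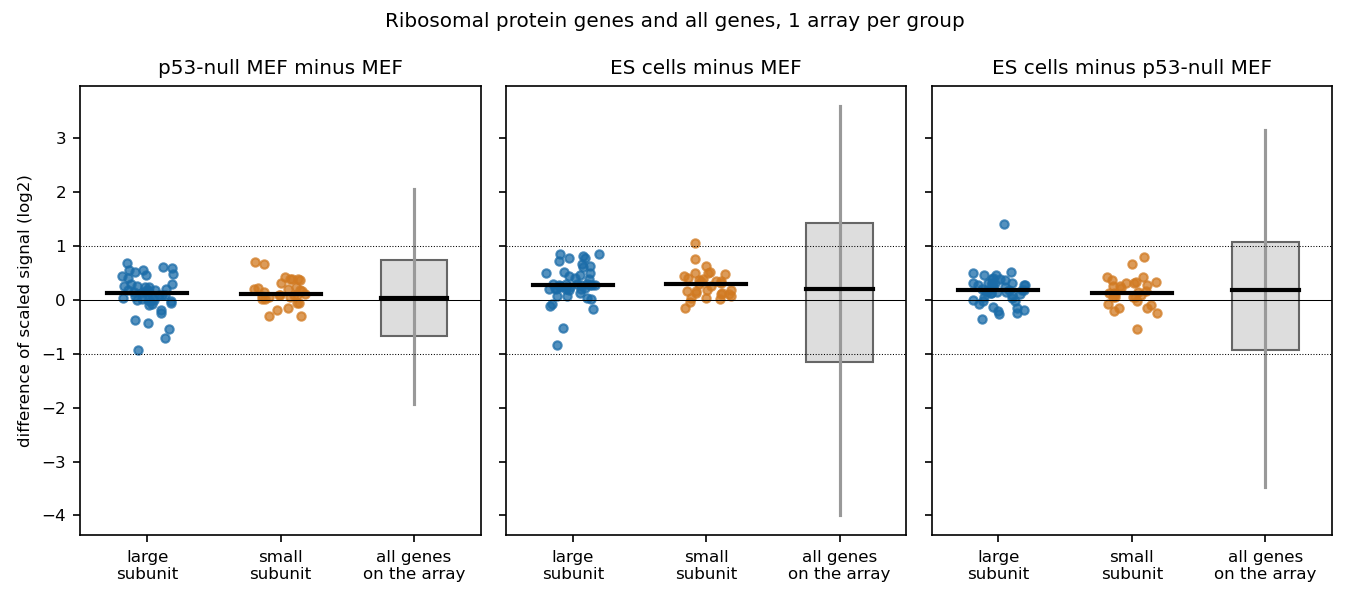
Difference of scaled signal (log2) for each ribosomal protein gene in 3 comparisons, with 46 large subunit genes in blue and 31 small subunit genes in orange. Black bars are medians, the grey box and line give the quartiles and the 5th to 95th percentile of all genes, and dotted lines mark 2-fold. The members keep within 2-fold apart from Rps15 for ES cells minus MEF and Rpl4 for ES cells minus p53-null MEF, while the upper quartile of all genes lies beyond 2-fold in both comparisons with ES cells.

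The lowest large subunit genes in p53-null MEF were Rpl21, Rpl14, Rpl4, Rpl36a and Rpl27a, with differences between -0.94 and -0.36. Rpl21 had a scaled signal of 0.922 in p53-null MEF and 1.77 in MEF. This probe was designed on a predicted transcript, and the other probe of the gene differed the opposite way. Rpl14 had 9.53 in p53-null MEF and 15.6 in MEF, a difference of -0.71. The highest large subunit genes were Rpl37, Rpl22, Rpl31, Rpl35a and Rpl13a, between 0.55 and 0.68. Rpl37, a zinc-binding protein, had 97.8 in p53-null MEF and 60.9 in MEF. Rpl22, known also for regulating the mRNA of its relative Rpl22l1, had 123 in p53-null MEF and 80.0 in MEF.

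In the small subunit Rps9, Rps26 and Rps13 were among the highest genes, between 0.39 and 0.70. Rps9, which lies near the site where the mRNA enters the ribosome, had a scaled signal of 103 in p53-null MEF and 63.1 in MEF. The lowest were Rps20, Rps27a, Rps7, Rps29 and Rps16, between -0.31 and -0.053. The first 3 of these are among the proteins known to bind Mdm2, and Rps27a is made as a fusion with ubiquitin. Rps20 had 188 in p53-null MEF and 232 in MEF, and Rps27a had 65.4 in p53-null MEF and 80.2 in MEF. All of these small subunit genes stayed below 2-fold.

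Between ES cells and MEF the median difference was 0.28, with a standard deviation of 0.30 and a range of -0.84 to 1.05, and it turned to -0.058 with cyclic loess normalization. The median of all 18666 genes was 0.21 and their standard deviation 2.31. Only Rps15 was called higher, and no member was called lower, against 32.9% higher and 27.3% lower among all genes. At 1.5-fold, 12 members were higher and 1 lower, against 41.4% and 34.2%. Of the 77 members, 45 lay within 1 error of the members' median.

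Rps15, a small subunit protein near the decoding site, had a scaled signal of 36.0 in ES cells, 20.6 in p53-null MEF and 17.4 in MEF. Its 2.08-fold difference between ES cells and MEF lay just past the threshold, and it was not called with normexp background correction, quantile normalization, median scaling or cyclic loess. Next came Rps3a1, with 152 in ES cells and 89.0 in MEF, and among those that followed was Rps25, with a difference of 0.63. Rps25 is dispensable for most translation and is used by certain viral and cellular internal ribosome entry sites. It had 175 in ES cells, 130 in p53-null MEF and 113 in MEF. The lowest small subunit genes were Rps13, Rps14, Rps20, Rps27 and Rps27a, between -0.14 and 0.045, which is less than 1 error from 0.

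The highest large subunit genes in ES cells were Rpl4, Rpl37, Rpl22, Rpl31 and Rpl3, between 0.77 and 0.86. Rpl3, at the peptidyl transferase centre, had a scaled signal of 208 in ES cells and 122 in MEF. Rpl31 had 10.9 in ES cells and 6.33 in MEF at its brightest probe, but its second probe differed by -0.27. The second probes of Rpl22 and Rpl37 were also opposite in sign, at -0.29 and -0.21. The lowest were Rpl14, Rpl21, Rpl11, Rpl39 and Rpl27a. Rpl14 had 8.73 in ES cells and 15.6 in MEF, a difference of -0.84, so it was lower in both ES cells and p53-null MEF. These 2 comparisons share the MEF array, on which the Rpl14 signal was the highest of the 3. Its single probe gave no second reading.

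Between ES cells and p53-null MEF the median was 0.16, with a standard deviation of 0.28 and a range of -0.54 to 1.41. It turned to -0.10 with median scaling, -0.065 with cyclic loess, -0.16 with no scaling and -1.54 on spike-ins. Rpl4 was the only member called higher and none was lower, against 26.9% higher and 23.9% lower among 18283 genes. On spike-ins Rpl4 turned to -0.29, none was higher and 75 of 77 were lower. At 1.5-fold, 3 members were higher and none lower, against 38.2% and 31.4%. Rpl4, which reaches into the exit tunnel, had 39.0 in ES cells, 14.7 in p53-null MEF and 21.5 in MEF, so ES cells lay above MEF and p53-null MEF below it. Rps13, which lies near a bridge between the subunits, lay at the other end with 139 in ES cells and 201 in p53-null MEF, a difference of -0.54. After Rpl4 the highest large subunit genes were Rpl10a, Rpl36a, Rpl8 and Rpl13, between 0.46 and 0.51, and the lowest were Rpl11, Rpl29, Rpl13a, Rpl30 and Rpl23a, between -0.35 and -0.18. In the small subunit Rps15, Rps3a1, Rps25 and Rps7 were among the highest, between 0.38 and 0.81. After Rps13, the genes Rps2, Rps9 and Rps18 were among the lowest, between -0.24 and -0.14.

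**Figure D2:**
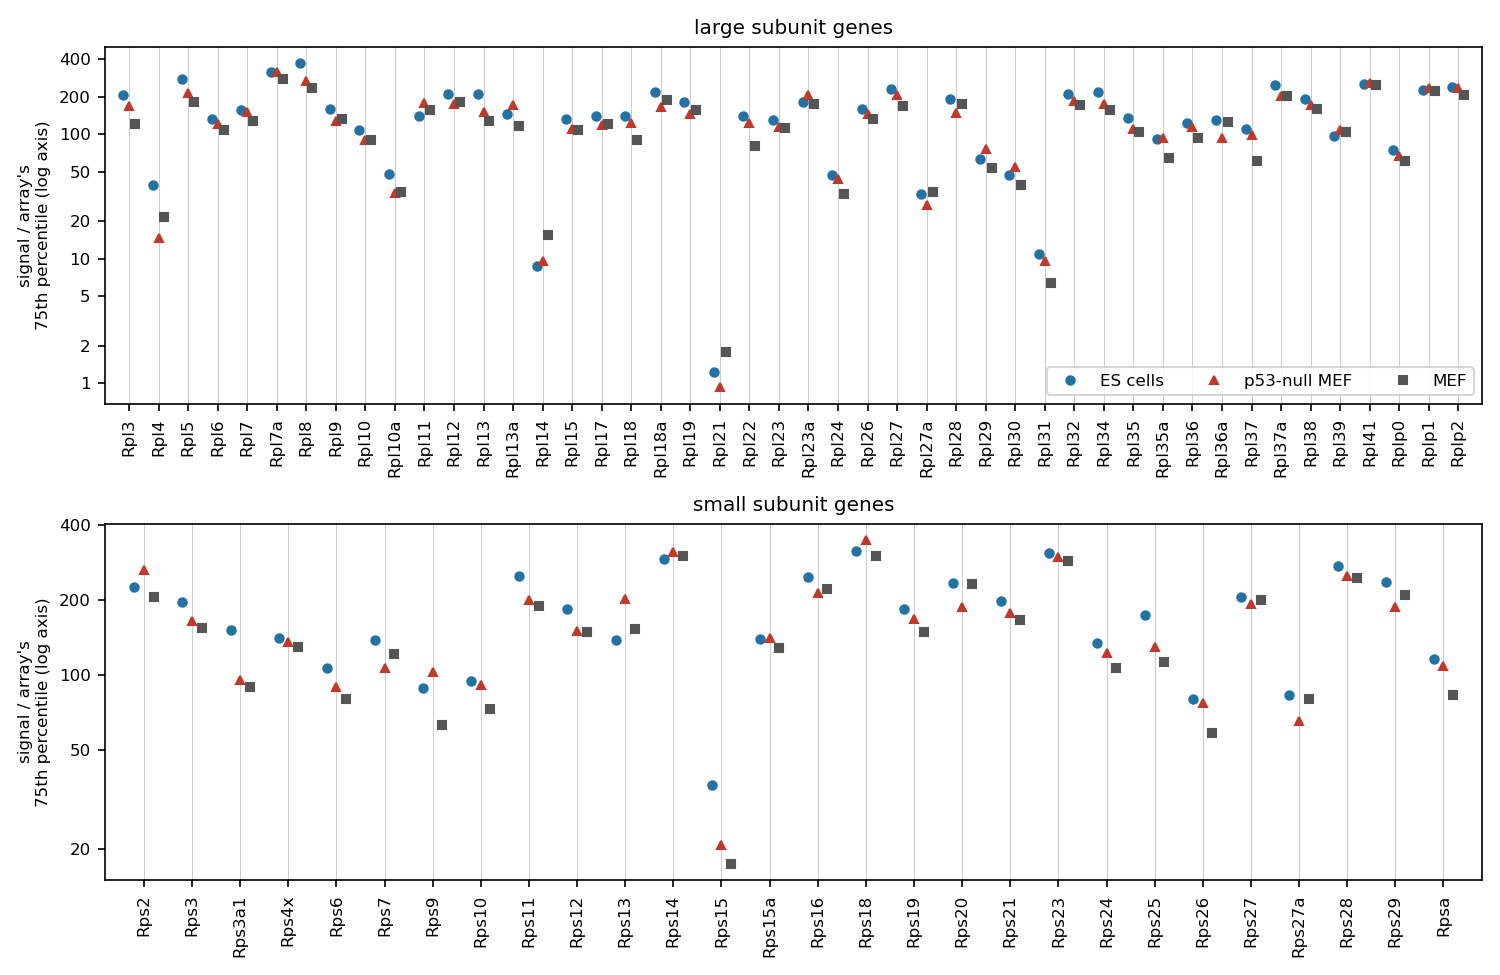
Scaled signal (log axis) at the brightest probe of each large subunit gene (top) and of most small subunit genes (bottom) in ES cells, p53-null MEF and MEF, 1 array each. Signals can be compared within a gene only, because probes differ in how brightly they read. The 3 points of most genes lie close together, with wider gaps for genes such as Rpl4, Rpl14, Rpl21, Rpl37 and Rps15.

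The large and the small subunit had like medians. For p53-null MEF minus MEF the medians were 0.14 for the large and 0.11 for the small subunit, for ES cells minus MEF 0.28 and 0.30, and for ES cells minus p53-null MEF 0.19 and 0.14. No error was worked out for a median over genes, so these 3 gaps carry none. By standard deviation the small subunit was the tighter in the first 2 comparisons, with 0.24 and 0.25 against 0.34 and 0.33 for the large subunit. The distance between quartiles did not bear this out throughout. It was 0.24 for the small and 0.30 for the large subunit in the first comparison. In the second it was 0.31 and 0.28, and in the third 0.30 and 0.27.

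The pair that carries 5S ribosomal RNA to Mdm2 did not move as one. Rpl5 had a scaled signal of 277 in ES cells, 215 in p53-null MEF and 182 in MEF. It was highest in ES cells, as were 57 of the 77 members in all. Rpl11 had 141 in ES cells, 180 in p53-null MEF and 157 in MEF. It was lowest in ES cells, as were 5 of the 77 members in all. The difference for ES cells minus MEF was 0.60 for Rpl5 and -0.16 for Rpl11, the second within 1 error of 0. For p53-null MEF minus MEF both were near the members' median, at 0.23 and 0.19.

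Mdm2 itself, the ubiquitin ligase of p53 and a p53 target, had 5.54 in ES cells, 2.35 in p53-null MEF and 5.47 in MEF, so it was called lower in p53-null MEF with a difference of -1.22. It turned to 0.75 on spike-ins, and its second probe gave -3.43. The 7 other ribosomal proteins listed as known to bind Mdm2 did not share a direction in p53-null MEF. At the brightest probes Rpl26 differed by 0.13, Rps3 by 0.10, Rps14 by 0.049 and Rpl23 by 0.0073. The second probes of Rps3 and Rpl23 differed by 0.83 and 0.55. Rps7, Rps27a and Rps20 lay at -0.19, -0.29 and -0.31, so none reached the threshold.

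The stalk proteins Rplp0, Rplp1 and Rplp2, which recruit elongation factors, stayed below 2-fold. Rplp0 was the one member printed at 10 spots, with 62043 ± 905 units in ES cells, 69614 ± 1695 in p53-null MEF and 50295 ± 2058 in MEF (mean and SD over spots of 1 array, unscaled). After scaling, its difference for p53-null MEF minus MEF was 0.14. Rplp1 had scaled signals of 224 in ES cells, 236 in p53-null MEF and 223 in MEF. Rplp2 had 241 in ES cells, 233 in p53-null MEF and 206 in MEF. For ES cells minus MEF the differences of Rplp0 and Rplp2 were beyond 1 error, at 0.29 and 0.23, and that of Rplp1, at 0.0100, was not.

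Around the exit tunnel, where the new protein leaves the large subunit, genes ranged widely. In p53-null MEF minus MEF, Rpl22 and Rpl31 had 0.62 and 0.60, Rpl23a 0.25, Rpl35 0.075, Rpl39 0.032, Rpl17 -0.025, Rpl19 -0.10 and Rpl4 -0.55. In ES cells minus MEF the same 8 genes lay between -0.11 for Rpl39 and 0.86 for Rpl4. Genes mutated in Diamond-Blackfan anaemia in humans were mostly near the members' median. Rps19, the most often mutated, had 184 in ES cells, 168 in p53-null MEF and 149 in MEF. Rps10 had 94.7 in ES cells, 91.0 in p53-null MEF and 73.2 in MEF. Rps26 had 80.1 in ES cells, 77.1 in p53-null MEF and 58.5 in MEF. Both Rps10 and Rps26 were lowest in MEF, as were 54 of the 77 members in all.

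Several members have a known extra or regulated role. Rps6, the substrate of S6 kinase, had 107 in ES cells, 89.6 in p53-null MEF and 80.2 in MEF. Rpl13a, which silences inflammatory mRNAs when released from the ribosome, had 145 in ES cells, 171 in p53-null MEF and 117 in MEF. Rpl38, needed for normal translation of Hox mRNAs in the mouse embryo, had 191 in ES cells, 172 in p53-null MEF and 161 in MEF. Rpl8, part of the large subunit core, had 371 in ES cells, 269 in p53-null MEF and 233 in MEF. Rps2 had 225 in ES cells, 265 in p53-null MEF and 205 in MEF.

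The 4 X-linked members were Rpl10, Rpl36a, Rpl39 and Rps4x. They differed by 0.27, 0.076, -0.11 and 0.12 for ES cells minus MEF, and for p53-null MEF minus MEF by -0.0033, -0.42, 0.032 and 0.066. The 3 Rpl36a probes disagreed in sign in the second comparison, at -0.42, 0.22 and 0.30. The second Rps4x probe, which has no position on mm8, was dim, with a scaled signal of 0.0621 in MEF. In p53-null MEF it was not well above background, at least 4.03-fold lower than in MEF. For ES cells minus MEF it differed by -0.90. The brightest Rpl10 probe is placed at chr13:62394783-62394842 of mm8, away from the gene on the X chromosome, and was the only one of 128 placed probes on another chromosome than its gene. It shares 29 bases with the X-linked probe, with 3 mismatches, and the 2 probes gave differences of 0.27 and 0.26 for ES cells minus MEF, but -0.0033 and 0.21 for p53-null MEF minus MEF and 0.28 and 0.058 for ES cells minus p53-null MEF. RefSeq names 315 pseudogenes after 62 of the 77 members, so a signal cannot be assigned to the gene alone.

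Second probes changed the picture for a minority of genes. Probes of 1 gene lay at least 2-fold apart in 11 of the 38 genes with several probes for p53-null MEF minus MEF, in 15 for ES cells minus MEF and in 11 for ES cells minus p53-null MEF. The clone AK014593 probe of Rpl11 had a scaled signal of 1.13 in ES cells, 0.994 in p53-null MEF and 0.222 in MEF, so it was lowest in MEF while the differences at the brightest Rpl11 probe lay between -0.35 and 0.19. Its differences were 2.34 for ES cells minus MEF and 2.16 for p53-null MEF minus MEF.

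The clone probe of Rpl13 had 1.42 in ES cells, 0.304 in p53-null MEF and 0.151 in MEF, a difference of 3.23 for ES cells minus MEF against 0.72 at the brightest probe. The clone probe of Rps18 had 0.380 in ES cells, 0.0710 in p53-null MEF and 0.0415 in MEF, or 3.19 against 0.076. For Rpl35a the clone probe was not well above background in MEF. Against that bound its signal was higher by at least 2.08-fold in ES cells and by at least 1.23-fold in p53-null MEF.

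Rps24, which is spliced into several mRNAs, had 2 clone probes. The one of AK135247 had 3.80 in ES cells, 3.07 in p53-null MEF and 0.434 in MEF. The one of AK049387 had 2.81 in ES cells, 0.552 in p53-null MEF and 0.155 in MEF. Both were lowest in MEF, but they parted in p53-null MEF, which was close to ES cells at the first and not at the second. The first 30 bases of each are shown, at chr14:23327912-23327971 and chr14:23329232-23329291 of mm8 on the plus strand, beyond the brightest probe of the gene.
Rps24, clone AK135247: caggtatagttcaagctattccgtagatca
Rps24, clone AK049387: gtcaagagcctgaactgagttgatcaagtc

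Further probes behaved alike. The clone AK138110 probe of Rpl27a had 2.70 in ES cells, 0.542 in p53-null MEF and 0.224 in MEF. The clone BC011192 probe of Rps13 had 2.17 in ES cells, 1.06 in p53-null MEF and 0.163 in MEF, and the second Rpl21 probe had 1.63 in ES cells, 1.10 in p53-null MEF and 0.232 in MEF. All 3 were lowest in MEF. The widest difference was at the second probe of Rpsa, the laminin receptor and small subunit protein, with 1.11 in ES cells, 2.11 in p53-null MEF and 0.0356 in MEF. That is 31.2-fold higher in ES cells and 59.2-fold higher in p53-null MEF than in MEF. The brightest Rpsa probe differed by 0.49 for ES cells minus MEF and 0.38 for p53-null MEF minus MEF.

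Some second probes went the other way. A clone probe named Rps6 had a scaled signal of 0.0307 in p53-null MEF and 0.140 in MEF, and in ES cells it was not well above background, at least 11.6-fold lower than in MEF. This probe is placed at chr4:86308526-86308585, against chr4:86327213-86327404 for the brightest one. The second Rpl22 probe differed by -1.32 for p53-null MEF minus MEF, and the second Rps3a1 probe by -0.95.

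**Figure D3:**
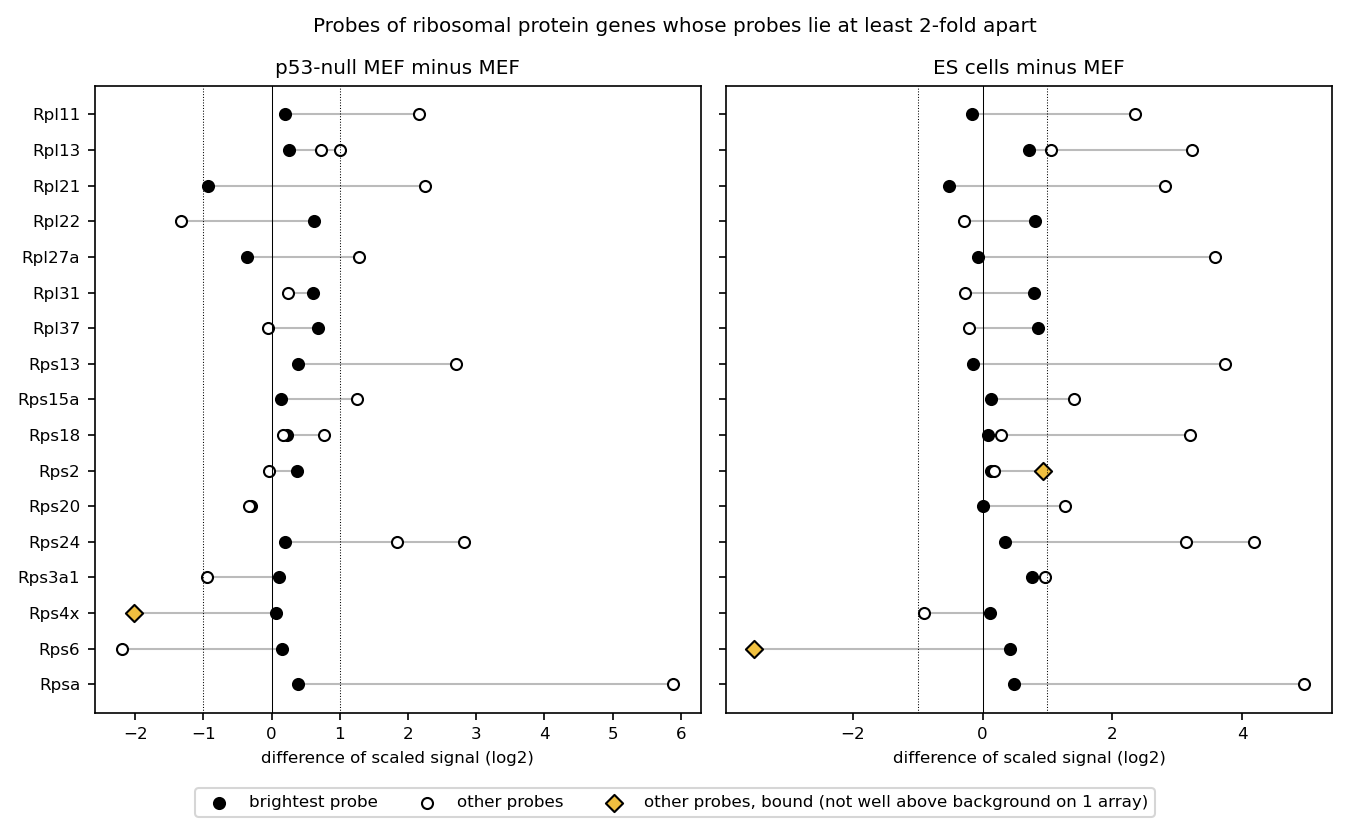
Difference of scaled signal (log2) at each probe of the 17 ribosomal protein genes whose probes lie at least 2-fold apart in any of the 3 comparisons, for p53-null MEF minus MEF (left) and ES cells minus MEF (right). Filled points are the brightest probe of a gene, open points its other probes, and diamonds are bounds. The filled points stay within 2-fold, and open points reach 5.89 and 4.96 for Rpsa.

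The difference between member probes went with their signal and with the transcript they were designed on, 2 properties that were not separated. Of the 109 member probes with a mean scaled signal of at least 5, a boundary chosen after the values were seen, none was called higher and 1 lower in p53-null MEF, against 13.2% higher and 5.91% lower among all 4029 probes that bright. For ES cells minus MEF 3 were called higher and none lower, against 27.8% and 21.7%. The standard deviation of these member probes was 0.33 and 0.30 in the 2 comparisons, and that of all bright probes 0.82 and 1.73. The 2 sets were not matched for signal above the boundary, so these spreads are not compared at like signal. Of the 20 dimmer member probes, 9 of 18 measured were called higher in p53-null MEF and 12 of 19 in ES cells, against 20.1% and 34.8% of all dimmer probes. Lower were 2 and 1, against 18.6% and 27.1%. For ES cells minus p53-null MEF 4 of the brighter member probes were higher and none lower, against 15.9% and 19.5%, and 7 of 19 dimmer ones were higher and 1 lower, against 29.4% and 23.5%. By transcript, 4 of 10 member probes designed on RIKEN clones were called higher in p53-null MEF and 6 of 11 in ES cells. Of the 109 member probes designed on RefSeq mRNAs, 3 and 6 were called higher in these comparisons. All such clone probes on the array were called higher at 36.7% and 41.9%, and probes designed on RefSeq mRNAs at 14.4% and 31.2%. For ES cells minus p53-null MEF 3 of 11 member clone probes and 4 of 109 member RefSeq probes were called higher. The shares of all clone and all RefSeq probes were 25.0% and 27.6%. The share among the members' clone probes is thus close to that of clone probes at large for p53-null MEF minus MEF.

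Some vertebrate ribosomal protein genes have a relative that can take their place in the ribosome, often in a restricted set of tissues. Of 8 relatives looked for, 7 were on the array, and 5 of these were called higher in ES cells than in MEF and none lower, against 32.9% and 27.3% of all genes. In p53-null MEF minus MEF none was called higher and 1 lower, against 18.6% and 16.6% of all genes. Rpl39l, the relative of Rpl39 best known from the testis, had a scaled signal of 22.6 in ES cells, 0.292 in p53-null MEF and 2.80 in MEF. It was 8.05-fold higher in ES cells and 9.59-fold lower in p53-null MEF, and its second probe gave differences of 2.60 and -3.20. Rpl39 itself had 97.0 in ES cells, 107 in p53-null MEF and 105 in MEF, and so was level in all samples.

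Rpl7l1 had 12.8 in ES cells, 5.93 in p53-null MEF and 4.30 in MEF, with differences of 1.58 and 1.99 at its 2 probes for ES cells minus MEF. Rpl36al had 46.8 in ES cells, 31.2 in p53-null MEF and 21.7 in MEF. Rps4l had 132 in ES cells, 31.3 in p53-null MEF and 26.4 in MEF, at a probe designed on an Ensembl transcript. This gene, 1 of the 5 called higher, got its name by matching to RefSeq, and the array file names the probe otherwise. Its identity was not checked further. All 3 were highest in ES cells. Rpl3l, the muscle relative of Rpl3, had 0.126 in ES cells and 0.0181 in MEF, and in p53-null MEF its signal did not clear background.

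The other 2 relatives stayed below 2-fold at their brightest probes. Rps27l, a known p53 target whose product binds Mdm2, had 94.8 in ES cells, 88.9 in p53-null MEF and 98.8 in MEF. Its differences of -0.15 for p53-null MEF minus MEF and -0.060 for ES cells minus MEF were within 1 error of 0. Rpl22l1 had 70.7 in ES cells, 62.0 in p53-null MEF and 56.5 in MEF at its brighter probe, but its second probe differed by 1.87 for p53-null MEF minus MEF and 2.83 for ES cells minus MEF.

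**Figure D4:**
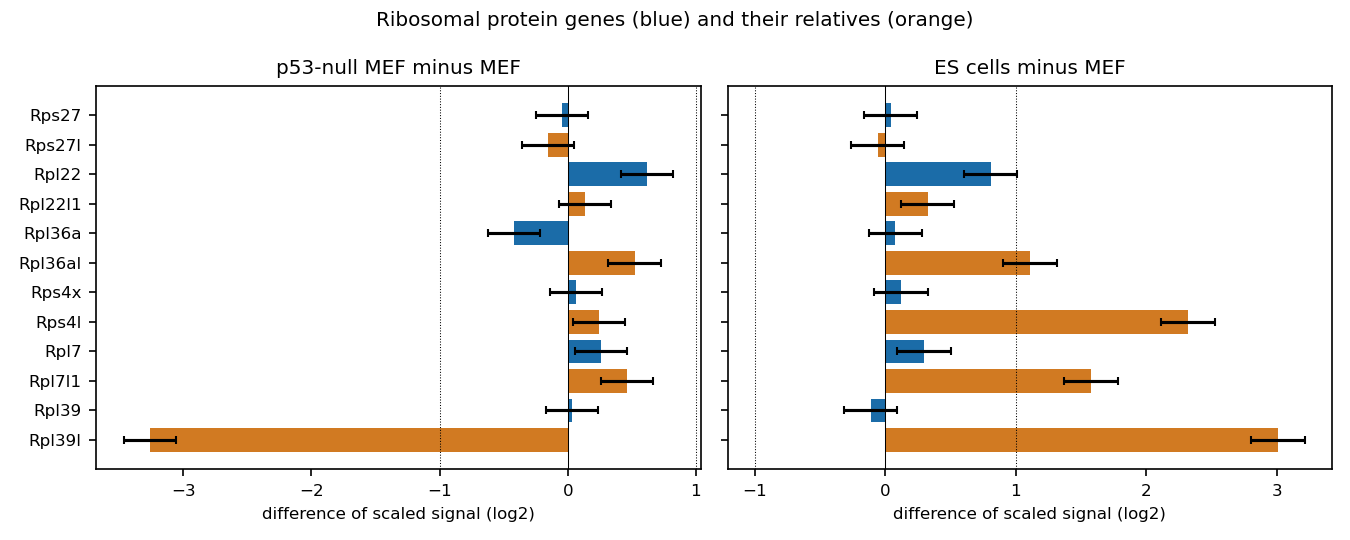
Difference of scaled signal (log2) for 6 ribosomal protein genes (blue) and their relatives (orange) at the brightest probe, for p53-null MEF minus MEF (left) and ES cells minus MEF (right). Error bars are the scanner software's error and leave out any spread between samples, and dotted lines mark 2-fold. Rpl39l reaches -3.26 on the left and 3.01 on the right while Rpl39 stays near 0.

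Among proteins of the cytosolic ribosome that go by other names, Fau and Rack1 stayed below 2-fold in all 3 comparisons. Fau, the ubiquitin-like fusion that yields the small subunit protein Rps30, had 260 in ES cells, 209 in p53-null MEF and 254 in MEF. Rack1, a scaffold on the small subunit, had 202 in ES cells, 166 in p53-null MEF and 199 in MEF.

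The genes that build ribosomes had larger medians than the genes for the ribosomal proteins. Of 98 ribosome biogenesis genes on the array, 94 were called higher and 1 lower in ES cells than in MEF, against 32.9% and 27.3% of all genes, with a median of 2.11. In p53-null MEF minus MEF 36 were called higher and none lower, against 18.6% and 16.6% of all genes, with a median of 0.83. In ES cells minus p53-null MEF 72 were higher and 1 lower, against 26.9% and 23.9% of all genes, with a median of 1.42 that turned to -0.28 on spike-ins. Polr1b, the second largest subunit of RNA polymerase I, had 9.90 in ES cells, 2.10 in p53-null MEF and 0.312 in MEF. Nop58, a core protein of the particles that methylate ribosomal RNA, had 38.9 in ES cells, 28.8 in p53-null MEF and 3.58 in MEF. Nolc1, a nucleolar chaperone, had 43.8 in ES cells, 5.22 in p53-null MEF and 5.13 in MEF, though its second probe differed by -0.56 for p53-null MEF minus MEF. Imp4, a protein of the small subunit processome, was the gene called lower in ES cells, where it was not well above background, at least 6.56-fold below MEF. Gnl3l, Cd3eap and Nol6 were the lowest in p53-null MEF, between -0.91 and -0.40, short of 2-fold, although the second Nol6 probe differed by -1.20.

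Mitochondrial ribosomal proteins, which serve the separate ribosome of the mitochondrion, lay between. Of 78 such genes, 34 were called higher and 1 lower in ES cells than in MEF, against 32.9% and 27.3% of all genes, with a median of 0.79. For p53-null MEF minus MEF 10 were higher and 1 lower, against 18.6% and 16.6% of all genes, with a median of 0.43. Mrpl15 had 12.8 in ES cells, 2.82 in p53-null MEF and 1.97 in MEF. Mrps6 had 13.6 in ES cells, 39.1 in p53-null MEF and 37.4 in MEF and was the one called lower in ES cells. Mrpl43, with 20.3 in p53-null MEF and 44.2 in MEF, was the one called lower in p53-null MEF, but its second probe differed by 0.097.

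Of 47 translation factors, 22 were called higher and none lower in ES cells than in MEF, against 32.9% and 27.3% of all genes, with a median of 0.82. For p53-null MEF minus MEF 7 of 46 were called higher and 2 lower, against 18.6% and 16.6% of all genes, and the median was 0.30. Eif2s3x, the X-linked subunit of the initiation factor that brings the first tRNA, had 17.8 in ES cells, 22.8 in p53-null MEF and 6.20 in MEF. Eef2, the translocation factor, had 50.6 in ES cells, 28.7 in p53-null MEF and 57.9 in MEF. Eif4ebp2, a repressor of cap-dependent initiation, had 11.1 in ES cells, 1.75 in p53-null MEF and 4.21 in MEF, and with Eef2 made up the 2 that were lower in p53-null MEF, while the other Eef2 probes ranged from -1.23 to -0.18. Beside these 3 lists the cytosolic ribosomal proteins had the smallest medians and the narrowest spread in both comparisons with MEF, a description of these arrays without a test. The lists were not matched for signal, so their spreads are not compared at like signal.

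**Figure D5:**
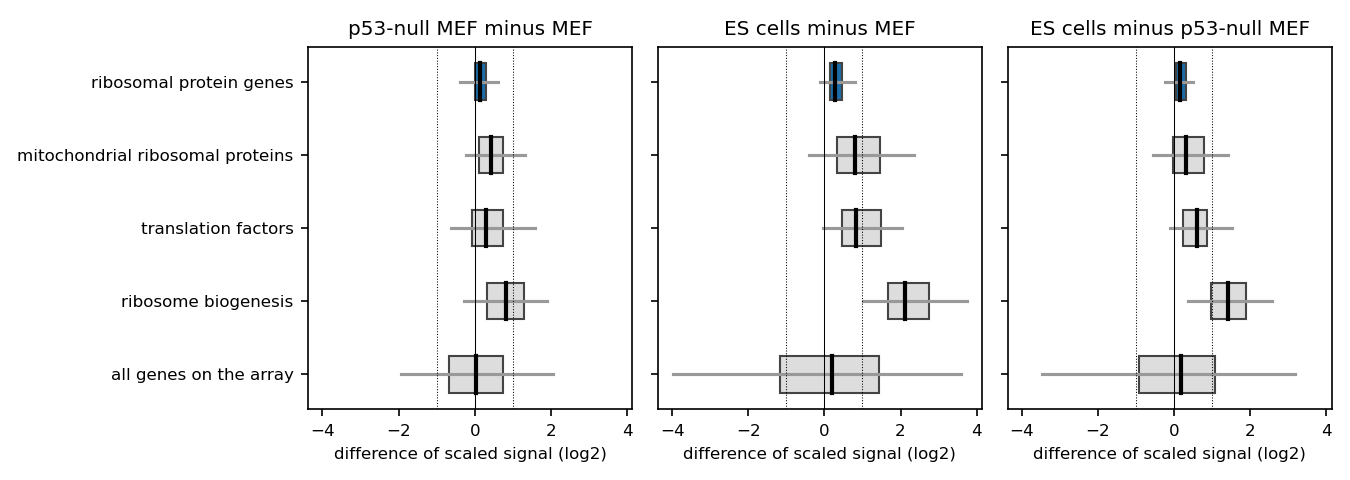
Median (black bar), quartiles (box) and 5th to 95th percentile (line) of the log2 difference of scaled signal in 5 gene lists, for p53-null MEF minus MEF, ES cells minus MEF and ES cells minus p53-null MEF. Dotted lines mark 2-fold. The ribosomal protein genes (blue) form the narrowest box in each panel, while the ribosome biogenesis box lies furthest right, with medians of 0.83, 2.11 and 1.42. The lists were not matched for signal.

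Promoter sequences of RefSeq, on build GRCm38.p6, were at hand for 57 of the 77 members. A run of at least 7 C and T bases that begins with C lay within 30 bases of an annotated start in 35 of them, or 61.4%, against 29.7% of 27025 genes. The shares were 61.8% for the large and 60.9% for the small subunit. The motif CCGGAAG, the core bound by Ets factors, was found on either strand within the 300 bases of the table in 24 members, or 42.1%, against 9.93% of all genes. A match describes letters and not a binding site. The windows below hold 20 bases before the annotated start and 10 from it on, with the C and T run in capitals. They are shown for 6 members whose run lies at the annotated start, as examples of the run.
Rps18, chr17:33955656-33955685, minus strand: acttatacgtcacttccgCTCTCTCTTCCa
Rpl28, chr7:4792945-4792974, plus strand: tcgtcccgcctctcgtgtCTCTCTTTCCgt
Rpl35a, chr16:33056462-33056491, plus strand: gcgcggcggggcttgCCTTCCTCTTTCCgc
Rps6, chr4:86857358-86857387, minus strand: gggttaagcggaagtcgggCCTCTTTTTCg
Rps27, chr3:90213639-90213668, minus strand: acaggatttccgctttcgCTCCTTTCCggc
Rpl38, chr11:114668560-114668589, plus strand: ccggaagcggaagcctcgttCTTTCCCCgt
The 6 genes differed by 0.22, -0.24, 0.55, 0.16, -0.047 and 0.097 for p53-null MEF minus MEF, in the order of the lines, and by 0.076, 0.14, 0.53, 0.42, 0.040 and 0.25 for ES cells minus MEF. None reached 2-fold.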

How the data were processed

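Total RNA of ES cells, p53-null MEF and MEF was hybridised to 1-colour Agilent arrays, 1 per group. The deposited values are spot intensities, which per the file headers came from Feature Extraction 9.5.3.1 and are background-subtracted, detrended and not scaled between arrays. The deposited value table held the same intensities, with ratios between 0.995 and 1.005. Here log2 intensity minus each array's 75th percentile over non-control spots was used. Outlier spots were dropped and spots averaged per probe. A probe counted as well above background when 50% or more of its spots carried that mark. Where it failed on 1 array, the other array was set against the higher of the probe's own signal there and that array's lowest well-measured signal, which gives a bound.

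Named genes were the 5 highest and 5 lowest members of each subunit per comparison, members called or with probes over 2-fold apart, role groups, and the extremes of comparison lists. Members and lists were chosen with earlier results of these data known. Names came from the RefSeq GRCm38.p6 table, which updated 1 member (Rps3a to Rps3a1), and the newer design file, which supplied the mm8 positions. It names 2 Rpl34 probes that the older file lists otherwise, and no longer names AK132208 as Rps12. The names left out were 10 S6 kinases at 21 probes, 5 like-genes at 7 probes and Rps19bp1. A few genes that the rule names are counted in the totals and not reported singly here.

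Spots of probes printed 10 times had a median standard deviation of 3.47% to 4.46%. The number of arrays limits the precision. Scripts, run with Python 3.11.15, pandas 2.3.3 and limma 3.58.1, were tested on simulated data.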

Additional observations from a re-analysis of the deposited data

How the results depend on the processing

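No paired analysis was possible because each group has 1 array and no result comes from a test. Scaling set the members' shared shift. Dividing an array by 1 number cannot change their standard deviation, so its staying near 0.30 is no check. The choice of probe did change it. For p53-null MEF minus MEF it was 0.54 by the mean of a gene's probes and 0.55 by the median probe. For ES cells minus MEF these were 0.59 and 0.60, and for ES cells minus p53-null MEF 0.36 and 0.34. For p53-null MEF minus MEF the median was 0.46 with no scaling (large 0.46, small 0.43) and 2.10 on spike-ins (large 2.11, small 2.08). For ES cells minus MEF it was 0.055 with median scaling (large 0.054, small 0.076), -0.058 with cyclic loess (large -0.066, small -0.051) and 0.55 on spike-ins (large 0.55, small 0.57), and quantile normalization gave 0.098 for the small subunit. For ES cells minus p53-null MEF it was -0.10 with median scaling (large -0.076, small -0.13), -0.065 with cyclic loess (large -0.042, small -0.11), -0.16 with no scaling (large -0.13, small -0.18) and -1.54 on spike-ins (large -1.51, small -1.56). The median of all genes on spike-ins was 2.09, 0.47 and -1.61.

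Counts of called members moved too. Higher in p53-null MEF than in MEF were 2 with no scaling, 77 on spike-ins, 4 by the mean or the median of a gene's probes and 5 at 1.5-fold, against 29.6% of all genes at that fold. Lower were 1 with cyclic loess, the mean or the median probe and 2 at 1.5-fold, against 27.3%. Higher in ES cells than in MEF were 0 with normexp, quantile, median scaling or cyclic loess, 7 on spike-ins, 9 by the mean, 8 by the median probe and 12 at 1.5-fold, against 41.4%. Lower was 1 with median scaling, cyclic loess, the mean, the median probe or 1.5-fold, against 34.2%. Higher in ES cells than in p53-null MEF were 0 on spike-ins, 4 by the mean, 3 by the median probe and 3 at 1.5-fold, against 38.2%, and 75 were lower on spike-ins.

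Spike-in scaling reversed Mdm2 (0.75) for p53-null MEF minus MEF. For ES cells minus p53-null MEF it reversed Rpl4 (-0.29), Rpl7l1 and the median of the relatives (each -0.59), ribosome biogenesis (-0.28), Mdm2 (-0.46) and Myc (-0.24). The cause was not tested. The deposited value table moved no result.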

Other observations

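Regulators were listed beside the ribosomal protein genes. Myc, which activates ribosomal genes, had a scaled signal of 21.7 in ES cells, 7.90 in p53-null MEF and 6.13 in MEF. Mycn, its embryonic relative, had 53.4 in ES cells, 0.408 in p53-null MEF and 0.774 in MEF. The S6 kinase gene Rps6kb1 had 3.06 in ES cells, 2.58 in p53-null MEF and 1.18 in MEF. Rps6ka1 had 6.68 in ES cells, 0.588 in p53-null MEF and 0.244 in MEF at its brighter probe, and its second probe differed by -0.36 for p53-null MEF minus MEF. Rps6kb2 differed by -0.64 for p53-null MEF minus MEF.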
